A study of Mus musculus with 15 samples.

Results

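The ferritin subunits Fth1 and Ftl1 and the transferrin receptor Tfrc were examined in the RNA of extracellular vesicles (EVs), the small membrane particles that cells release, taken from the blood of mice. The members are the rows of these symbols in every deposited count table, which makes 3 of 43472 genes. Levels are given as CPM, that is the reads of a gene scaled to a total of 1000000 reads on genes in every library.

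The libraries came from 3 groups. WT-derived EVs (n = 3) came from mice labelled WT, which the design text gives as black 6. Dystrophic-derived EVs (n = 6) came from mice labelled Sgcb null, which lack beta-sarcoglycan, a muscle membrane protein. Hypertrophic-derived EVs (n = 6) came from mice labelled MAGIC F1, whereas the study's methods give Mstn-null, a loss of myostatin, for the hypertrophic mice of the RNA-seq. The mice were 3 to 6 months old, the labels name no drug, and the EVs of 2 to 3 mice were pooled for each sample. The tissue is labelled serum and described elsewhere as plasma. The numbers that the label and the count table give to a library are crossed between the groups for 6 of them, namely for dystrophic replicates 4 to 6 and for hypertrophic replicates 1 to 3. Groups follow the labels, and replicate numbers only name libraries.

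Ferritin is a hollow protein shell in which cells store iron. Its heavy chain, encoded by Fth1, oxidises iron as it enters, and its light chain, encoded by Ftl1, helps the mineral core to form. The transferrin receptor takes up transferrin-bound iron, is abundant on erythroid precursors, and is lost from maturing reticulocytes partly through the vesicles they release. All of these transcripts carry iron-responsive elements, hairpins that bind the iron regulatory proteins. In the 5′ untranslated region (UTR) of the ferritin mRNAs the bound protein blocks translation, and in the 3′ UTR of the Tfrc mRNA it protects the transcript from decay.

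The elements are shown because they place the 3 transcripts in 1 regulatory family. The motif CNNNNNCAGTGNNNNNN was searched on the transcript strand, with the 5 bases on each side of the 6-base loop required to pair and G-T pairs allowed. Sequences and positions are from the GENCODE M21 annotation of mm10, printed as 30 bases from 5′ to 3′ with the loop in capitals. The Fth1 element lies at chr19:9982732-9982761 on the plus strand, in exon 1, and its loop begins 126 bases before the start codon. The Ftl1 element lies at chr7:45459778-45459807 on the minus strand, in exon 1, and its loop begins 164 bases before the start codon. The search found 4 elements in Tfrc. They lie in exon 19 on the plus strand of chromosome 16, at chr16:32631219-32631248, chr16:32631598-32631627, chr16:32631663-32631692 and chr16:32631710-32631739.
Fth1: ttcctgcttcaaCAGTGCttgaacggaacc
Ftl1: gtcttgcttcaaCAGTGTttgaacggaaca
Tfrc element 1: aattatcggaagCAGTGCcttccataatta
Tfrc element 2: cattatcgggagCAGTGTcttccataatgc
Tfrc element 3: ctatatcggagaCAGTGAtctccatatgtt
Tfrc element 4: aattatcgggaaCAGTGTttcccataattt
The Fth1 and Ftl1 elements were identical at 26 of 30 bases. The motif was present in the 5′ UTR of 28 of 20546 genes (0.136%) and in the 3′ UTR of 127 of 20937 genes (0.607%). Of 64 iron-handling genes with a gene model, 5 held it in the 5′ UTR and 1, Tfrc, in the 3′ UTR. A match describes the letters only, and the search misses any element with an unpaired base among the 5 on each side of the loop.

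Fth1 (ENSMUSG00000024661.7, chr19:9980598-9985098, plus strand) has a transcript of 929 bases in 4 exons. Ftl1 (ENSMUSG00000050708.16, chr7:45457944-45459884, minus strand) has 968 bases in 4 exons. Tfrc (ENSMUSG00000022797.16, chr16:32608920-32632794, plus strand) has 4890 bases in 19 exons, of which 2461 bases are the 3′ UTR. The ferritin transcripts are short and the Tfrc transcript is long. The ratio of the ferritin chains is therefore given per length, and ranks and shares by reads, given below, carry no correction for length.

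Depth differed widely. Reads on genes numbered from 27227 to 7738568 in WT-derived, from 1170610 to 32563362 in dystrophic-derived and from 328710 to 6461652 in hypertrophic-derived libraries, so that the 3 counts compatible with a count of 0 correspond to a level of 0.0921 to 110 CPM. The RNA was amplified before library construction, so intervals and such limits cover counting error only. Sgcb had 695 reads (365 CPM) in hypertrophic replicate 3 and 0 in the other 14 libraries, WT-derived included. Mstn had 0 in all 15, so the counts of 0 check no label. Hypertrophic replicate 3 has crossed numbers, and with the crossed libraries exchanged it would count as dystrophic-derived, labelled Sgcb null. What its Sgcb reads mean for its label was not tested. Of 5 EV markers, Cd9 was counted in every library, at 3924 to 33354 CPM, and Cd81, Cd63, Tsg101 and Pdcd6ip in 11, 10, 10 and 8. The blood cell markers are given below beside the ferritins.

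Fth1 was among the most counted genes of every library, and its level did not separate the conditions. In WT-derived EVs it stood at 13773, 17900 and 14738 CPM (15470 ± 2159, SD, n = 3). Among dystrophic-derived EVs its lowest level was 7483, its median 14301 and its highest 28425 CPM (16063 ± 7340, SD, n = 6). In hypertrophic-derived EVs its lowest level was 10226, its median 13170 and its highest 19282 CPM (14336 ± 3265, SD, n = 6). The 3 ranges overlapped, and the dystrophic-derived libraries held both the lowest value, in replicate 2, and the highest, in replicate 4. When taken as a share, Fth1 made up 0.748% to 2.84% of the reads on genes, and ranked from 5 to 11 when genes were ordered by reads with no correction for length.

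Ftl1 was also counted in every library, on 208 to 138972 reads. In WT-derived EVs it stood at 7639, 3489 and 3263 CPM (4797 ± 2464, SD, n = 3). Among dystrophic-derived EVs it ran from 2719 over a median of 4395 to 4844 CPM (4024 ± 851, SD, n = 6). In hypertrophic-derived EVs it ran from 1623 over a median of 4272 to 8293 CPM (4531 ± 2439, SD, n = 6). The dystrophic-derived libraries lay within the range of the hypertrophic-derived ones, and the highest values were in hypertrophic replicate 5 and in WT replicate 1, the library with the fewest reads. Both ferritin genes together took 1.21% to 3.33% of the reads on genes.

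Tfrc was counted in 4 libraries only. Dystrophic replicate 1 held 63 reads of it (53.8 CPM, 95% Wilson interval 42.1 to 68.8), dystrophic replicate 5 held 104 (36.0 CPM, 29.7 to 43.6) and dystrophic replicate 6 held 188 (5.77 CPM, 5.005 to 6.66). Hypertrophic replicate 1 held 477 reads (93.2 CPM, 85.2 to 101.9). The other 11 libraries, all 3 WT-derived ones among them, held 0. The 0 of WT replicate 1 allows up to 110 CPM, above every level measured, and says nothing on its own. Those of WT replicates 2 and 3 allow up to 0.388 and 4.99 CPM by counting error alone, below the lowest level measured, 5.77 CPM. At the lowest level seen in their own group, 5.77 CPM, dystrophic replicates 2, 3 and 4 would have held 12.5, 15.5 and 9.29 reads. At 93.2 CPM, the hypertrophic-derived libraries without a read would have held between 30.6 and 602 reads. All of these are above the 3 counts that a count of 0 allows, by counting error alone. The libraries also differed in the number of genes with a read. It was 6567, 7477 and 8968 in dystrophic replicates 1, 5 and 6, and 3705, 2415 and 1103 in dystrophic replicates 2, 3 and 4. Hypertrophic replicate 1 had 3714, fewer than the 5284 and 5710 of hypertrophic replicates 2 and 6, which held no Tfrc. The part of this in the detection of Tfrc was not tested. The level of 93.2 CPM is that of a single library, and at 5.77 CPM the limits of hypertrophic replicates 4 and 5, 6.65 and 9.13 CPM, would not tell it from 0.

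**Figure D1:**
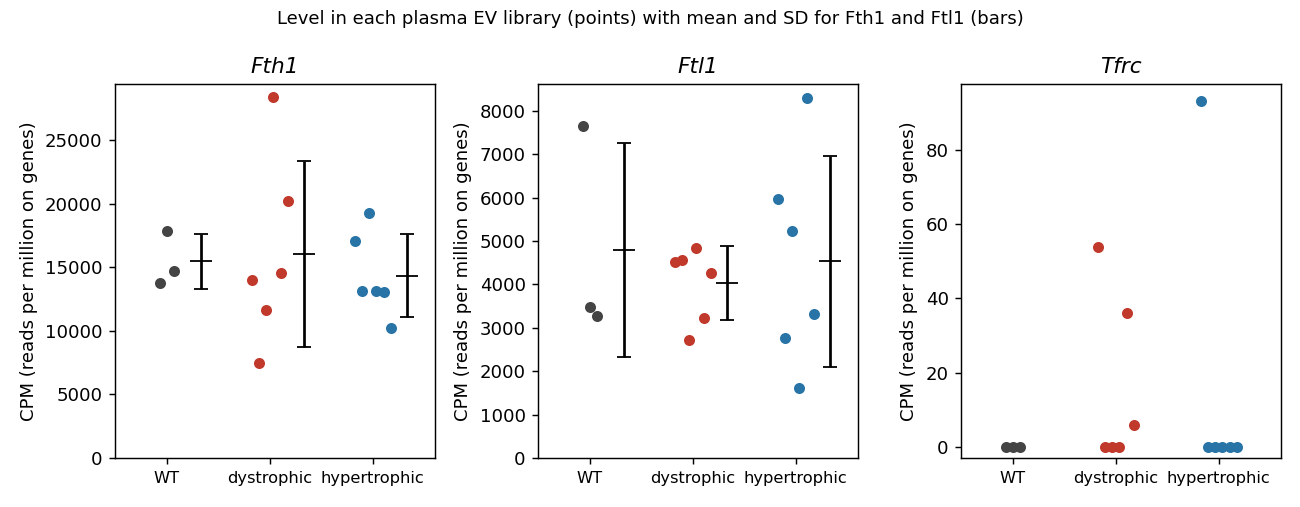
Level of Fth1, Ftl1 and Tfrc in CPM (vertical axes, linear, each gene with its own scale) in every library, 1 point per library, by condition (horizontal axes). Bars give mean and SD for Fth1 and Ftl1. The 3 conditions overlap for both ferritin genes, and Tfrc is above 0 in 3 of 6 dystrophic-derived and 1 of 6 hypertrophic-derived libraries.

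The comparison of conditions was made across all genes with edgeR's quasi-likelihood test, in which 6887 genes, all 3 members among them, passed the filter on low counts. Tfrc passed it through the 4 libraries that held it. None of the 3 members differed between any pair of conditions at an adjusted p under 0.05. The background was as low, since the test called 0.0145% of the genes in dystrophic-derived against WT-derived EVs, 0.0290% in hypertrophic-derived against WT-derived EVs and 0.0145% in hypertrophic-derived against dystrophic-derived EVs. Without adjustment, a p under 0.05 was reached by 139 (2.02%), 552 (8.02%) and 823 (12%) genes, and none of the members was among them. The labels do not say that the samples of a group came from separate animals, so the p-values describe these samples only. The mice that the methods give per genotype for plasma are fewer than 6 separate pools of 2 to 3 mice need. Samples of a group of 6 may therefore share animals. The edgeR fit gave all weight to a spread estimated across genes, with infinite prior degrees of freedom, and none to a gene's own. Its p-values, SE and intervals for the members therefore do not measure the spread of those genes between these samples. The intervals use a normal distribution, without allowance for the few libraries. The permutation tests below use each gene's own values.

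For Fth1 the fitted log2 difference was 0.063 (SE 0.37) between dystrophic-derived and WT-derived EVs, a fold of 1.04 with a 95% interval of 0.632 to 1.73 (edgeR adjusted p = 1). Between hypertrophic-derived and WT-derived EVs it was -0.46 (SE 0.36), a fold of 0.725 with an interval of 0.442 to 1.19 (edgeR adjusted p = 0.527). Between hypertrophic-derived and dystrophic-derived EVs it was -0.53 (SE 0.30), a fold of 0.694 with an interval of 0.460 to 1.05 (edgeR adjusted p = 0.651). These intervals hold the differences of Fth1 that the fit does not exclude, so equal levels in the groups were not shown. Scaling moved the values, since with library size alone in place of TMM the last 2 differences were -0.10 and -0.16. An exact two-sided permutation test of log2 CPM, chosen after seeing the data, gave differences of -0.061, -0.13 and -0.071 in the same order, with p = 0.905, 0.5 and 0.823 (adjusted p = 0.905 for each).

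For Ftl1 the intervals were wider. The fitted fold was 0.952 (95% interval 0.379 to 2.39) in dystrophic-derived against WT-derived EVs, with an edgeR adjusted p of 1. It was 0.821 (0.329 to 2.05) in hypertrophic-derived against WT-derived EVs, with an edgeR adjusted p of 0.990. It was 0.863 (0.406 to 1.83) in hypertrophic-derived against dystrophic-derived EVs, with an edgeR adjusted p of 1.0, and this difference changed sign without TMM. No direction is given for Ftl1. The exact permutation test gave differences of -0.17, -0.16 and 0.0065 on log2 CPM (p = 0.643, 0.786 and 0.994; adjusted p = 0.994 for each).

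For Tfrc no fold against WT-derived EVs is given, because every WT-derived library was at 0 and the fitted fold then depends on the prior count. The edgeR adjusted p was 0.433 between dystrophic-derived and WT-derived EVs, 0.430 between hypertrophic-derived and WT-derived EVs, and 1.0 for hypertrophic-derived against dystrophic-derived EVs. DESeq2 called Tfrc higher in both groups than in WT-derived EVs, with adjusted p = 4.29e-06 and 3.83e-06. In these comparisons it called 19.1% and 22.2% of the genes. It did not call Tfrc between the hypertrophic-derived and dystrophic-derived groups, where it called 4.69%. Both DESeq2 p-values are against a group at 0 in every library. The second rests on 477 reads in hypertrophic replicate 1, the only library of its group with a read. Neither is taken as a difference between conditions. The number of libraries with a Tfrc read was 0 of 3, 3 of 6 and 1 of 6 in WT-derived, dystrophic-derived and hypertrophic-derived EVs. Fisher's exact test (two-sided) gave p = 0.464 when dystrophic-derived EVs were set against WT-derived ones, 1 when hypertrophic-derived EVs were, and 0.545 for hypertrophic-derived against dystrophic-derived (adjusted p = 0.818, 1 and 0.818). Dystrophic replicate 1 is the only library with a read whose numbers match, and exchanging the crossed libraries between the groups gave 2 of 6 in each.

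The balance of the heavy and light chains was compared between conditions as the share of Fth1 in the reads of both genes. It was 64.3%, 83.7% and 81.9% in WT-derived EVs (76.6% ± 10.7, SD, n = 3). In dystrophic-derived EVs it ran from 62.1% in replicate 2 to 85.4% in replicate 4 (78.1% ± 8.48, SD, n = 6), and in hypertrophic-derived EVs from 61.2% in replicate 5 to 89.0% in replicate 4 (76.9% ± 9.39, SD, n = 6). The group means lay within 1.49 percentage points of each other, far less than the spread within any group. The exact two-sided permutation test gave p = 0.952 when dystrophic-derived EVs were set against WT-derived ones, 1 when hypertrophic-derived EVs were, and 0.792 for hypertrophic-derived against dystrophic-derived EVs (adjusted p = 1 for each). The smallest p it could give was 0.0238 against WT and 0.00216 between the other 2 groups.

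The order of the heavy and light chains differed between scales that treat reads from shared sequence in different ways. Of the 919 windows of 50 bases, the length of a read, in the Ftl1 transcript, 833 (90.6%) also occur in transcripts of other genes, 17 in number and mostly Ftl1 pseudogenes. Of the 880 windows of Fth1, 58 (6.59%) are shared, all with Gm6977, and of the 4841 windows of Tfrc none is. Per kilobase of transcript, the ratio of Fth1 to Ftl1 had a median of 4.47 and was above 1 in every library (1.64 to 8.46). Per unshared window its median was 0.449 and it was below 1 in every library (0.165 to 0.849). The 2 scales bracket the case in which all reads in shared windows were counted and the case in which none was. The deposited tables list reads whose alignment was not unique on a summary line apart from the genes, with 46618 to 36754333 a library, so such reads were set apart from the gene counts. The scale per unshared window is the one that corresponds to this, and on it Fth1 was below Ftl1. That scale takes the few unshared Ftl1 windows to stand for the whole transcript, and even coverage was not tested. Whether every read from a shared window was set apart was not tested either. The order of the 2 chains and the size of their ratio therefore remain uncertain.

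**Figure D2:**
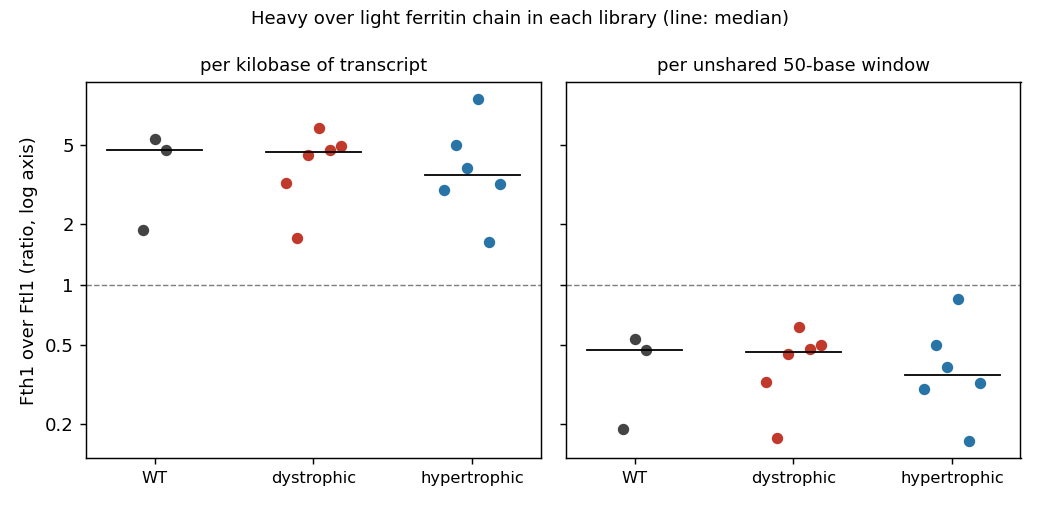
Ratio of Fth1 to Ftl1 in each library (vertical axis, log scale, no unit), by condition, per kilobase of transcript on the left and per unshared 50-base window on the right. Points are libraries, short lines are medians of a condition, and the dashed line marks equal levels. All 15 points lie above 1 on the left and below 1 on the right, and the conditions overlap on both.

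Few reads were assigned to those ferritin copies that were counted. Of the 17 genes that share windows with Ftl1, 12 have a row in the files, with 699 reads in all against 289155 for Ftl1. Copies without a row include Ftl1-ps1, Gm10252, Ftl2-ps, Gm47428 and Ftl1-ps2, which share 675, 307, 273, 242 and 125 windows with Ftl1. Reads whose alignment was not unique are also apart from these rows. The 699 reads therefore do not show how many reads came from the copies. Gm6977 held 449 reads, all in dystrophic replicate 6, the deepest library. Of the symbols that start with Fth or Ftl, Fth-ps2 had 12 reads in 3 libraries, Ftl2 had 1, and Fthl17, a testis heavy chain relative, had 0. Mitochondrial ferritin, Ftmt, had 0 as well.

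The ferritin genes varied less between libraries than most genes did. Among the 169 genes with a read in every library, the median SD of log2 CPM over the 15 libraries was 1.01. For Fth1 it was 0.449, and 2 genes, Actg1 and Rpl7, both named after their values were seen, had a smaller one. For Ftl1 it was 0.609, with 11 genes smaller. Both are at the upper end of the levels, where the spread is smaller in general, with 4 genes above Fth1 and 20 above Ftl1 in mean log2 CPM, which is not corrected for length. From the lowest to the highest library, Fth1 differed 3.80 times and Ftl1 5.11 times.

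**Figure D3:**
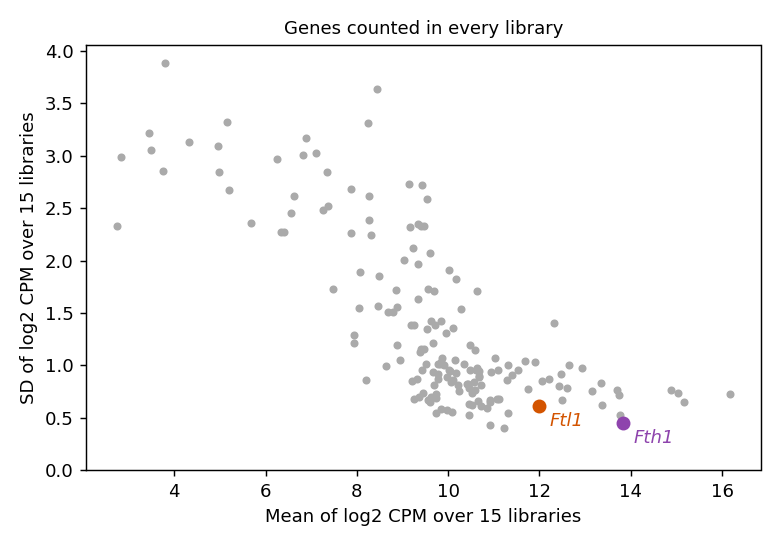
SD against mean of log2 CPM over the 15 libraries (both axes in log2 units) for the 169 genes with a read in every library, 1 grey point per gene, with Fth1 and Ftl1 in colour. Both ferritin genes lie along the lower edge at high levels, with an SD of 0.449 and 0.609 against a median of 1.01.

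Across the 15 libraries, 12 relations of log2 CPM were computed between members, depth and blood cell markers, and none passed the correction over the 12. Fth1 and Ftl1 did not move together to a degree that could be told from 0 (r = 0.178, permutation p = 0.526, adjusted 0.748; rho = 0.239, p = 0.389, adjusted 0.666; r = 0.271 without dystrophic replicates 2 and 4). Fth1 gave r = 0.157 and Ftl1 gave r = -0.309 with the logarithm of the reads counted (permutation p = 0.568 and 0.262; rho = 0.189 and -0.304, p = 0.4996 and 0.273). Without WT replicate 1 and dystrophic replicate 6 the r were -0.00379 and -0.0888.

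The summed platelet markers were the measure nearest to Fth1. Over all libraries r was 0.521 (permutation p = 0.0463, adjusted 0.556) and rho 0.400 (p = 0.139, adjusted 0.545), and without dystrophic replicates 1 and 2 the r fell to 0.270, so that the pooled relation rests on those libraries. Taking the dystrophic-derived libraries alone, Pearson's r was 0.958 (exact permutation p = 0.00417) and Spearman's rho 0.943 (p = 0.0167). Adjusted over the 24 within-group relations these were 0.1 and 0.2. Taking the hypertrophic-derived libraries alone, they were 0.544 (exact permutation p = 0.310) and 0.429 (p = 0.419). The WT-derived group has too few libraries for a value of its own.

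The erythroid markers were set beside Ftl1 in the same way. Over all libraries r was 0.356 (permutation p = 0.194, adjusted 0.746) and rho 0.486 (p = 0.0695, adjusted 0.417), with r = 0.362 without WT replicate 2 and dystrophic replicate 4. In the dystrophic-derived libraries the order of Ftl1 was that of the erythroid markers (rho = 1, exact permutation p = 0.00278, adjusted 0.0667; r = 0.849, p = 0.0333, adjusted 0.4). In the hypertrophic-derived libraries rho was 0.0857 (exact permutation p = 0.919) and r 0.263 (p = 0.610). With the platelet markers Ftl1 gave r = 0.418 (permutation p = 0.121, adjusted 0.726) and rho = 0.532 (p = 0.0439, adjusted 0.417), and r = 0.681 without dystrophic replicates 1 and 2.

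**Figure D4:**
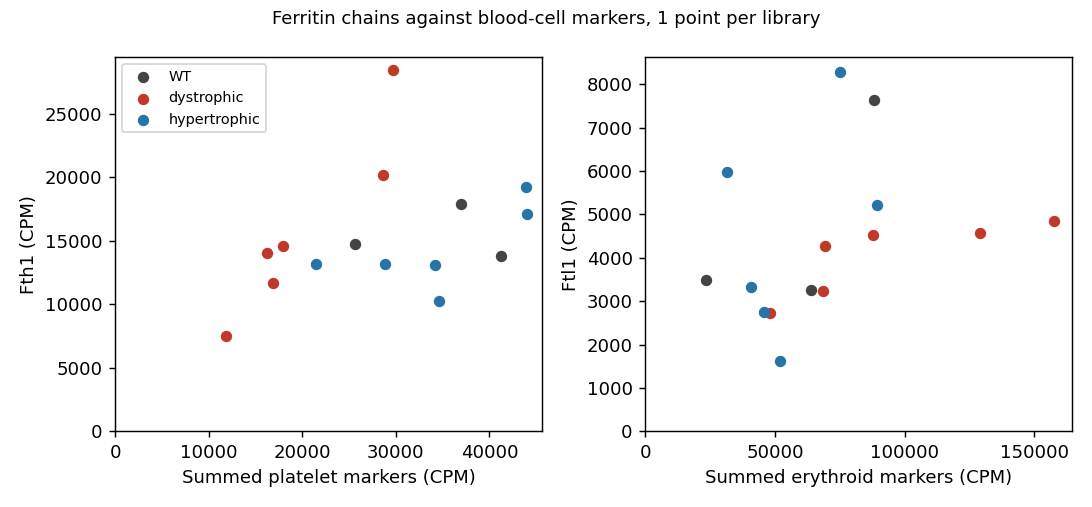
Fth1 against the summed platelet markers (left) and Ftl1 against the summed erythroid markers (right), all in CPM on linear axes from 0, 1 point per library, coloured by condition. Within the dystrophic-derived points rho is 0.943 on the left and 1 on the right, neither past the correction, and within the hypertrophic-derived points it is 0.429 and 0.0857. The difference between the groups was not tested.

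The ranges of these markers overlapped between the conditions, some of them barely. The 10 platelet markers, of which 4, Pf4 among them, were counted in every library, summed to 25637 to 41283 CPM in WT-derived, 11842 to 29723 in dystrophic-derived and 21478 to 43979 in hypertrophic-derived libraries, with medians of 36946, 17386 and 34359 CPM. In 4 of the 6 dystrophic-derived libraries the sum was below that of every other library. The 12 erythroid markers, mostly hemoglobin by reads, summed to 23506 to 88184, 47892 to 157793 and 31456 to 89448 CPM. The erythroid regulator Klf1 was at 0 in all 15 libraries. Of 9 macrophage markers, 8 have a row and 7 had a read, with Cd163 at 0 throughout. They summed to 201 to 946, 483 to 2298 and 942 to 3432 CPM. This sum was mostly Lyz2, with 72941 reads in 15 libraries against 2235 in 5 for Cd68, the next by reads. The 3432 CPM, in hypertrophic replicate 4, was Lyz2 alone. The 8 hepatocyte markers, none of which was in every library, summed to 0 to 118, 0 to 156 and 0 to 2181 CPM, with 1221 CPM in hypertrophic replicate 6. In whole EV RNA, more vesicles from a cell type and more of a transcript in each vesicle cannot be told apart. The part of any cell type in the ferritin levels was not tested.

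The surrounding iron pathway was detected sparsely. Of 66 genes listed, 56 have a row in the files. Of these, 8 had no read, 31 were in 1 to 4 libraries, 11 in 5 to 11 and 2 in 12 to 14, and 4 were in every library, Fth1, Ftl1, Alas2 and Epas1. The number with a read ran from 4 in WT replicate 1, the shallowest library, to 36 in dystrophic replicate 6, the deepest. Of the 30 that passed the filter, edgeR called 0 higher and 0 lower in each of the 3 comparisons, against the 0.0145%, 0.0290% and 0.0145% of all genes given above. At an unadjusted p under 0.05 they numbered 0, 1 and 4 of the 30, where the shares of all genes were 2.02%, 8.02% and 12%.

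The median fitted log2 difference of these 30 genes was 4.21 in dystrophic-derived against WT-derived, 0.72 in hypertrophic-derived against WT-derived and -0.63 in hypertrophic-derived against dystrophic-derived EVs. Over all genes tested it was 1.38, 0.66 and -0.52. Many of the genes were at 0 in all WT-derived libraries, 12 and 13 of the 30 having a group at 0 in the comparisons with WT. With such a group set at 3 counts per library, and genes at or under that floor left out, the median log2 ratio of mean CPM was 0.81 over 18 genes, 0.35 over 17 and -0.36 over 30. The same ratio over all genes was 0.47, 0.35 and -0.36.

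All 8 genes listed for the uptake of transferrin iron had a read in some library, and 7 of them in 4 libraries or fewer, Tfrc among these. Snx3, which helps to recycle the receptor, was in 11 libraries at up to 564 CPM, and Hfe, a partner of the receptor, in 4 at up to 71.9 CPM, both named after their values were seen. Transferrin itself, Trf, was in dystrophic replicate 5 (36.3 CPM) and hypertrophic replicate 6 (26.3 CPM). Tfr2, the second transferrin receptor of liver and erythroid cells, was in hypertrophic replicate 6 alone (35.6 CPM). Steap3, which reduces iron in endosomes, was in WT replicate 2 alone (23.5 CPM). Slc11a2, which carries iron out of the endosome, was in dystrophic replicates 1 and 5 (2.56 and 27.3 CPM). Trf, Tfr2, Steap3 and Slc11a2 were each in at most 2 libraries.

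The chaperones that load ferritin differed among themselves. Pcbp2 was in 12 libraries, at up to 1207 CPM, and was absent from WT replicate 1, dystrophic replicate 4 and hypertrophic replicate 4. Pcbp1 was in 8 libraries, at 54.0 to 284 CPM, and Pcbp3 and Pcbp4, named after their values were seen, were in 3 each. Ncoa4, the receptor that takes ferritin to the lysosome, was in 4 libraries, with 179.8 CPM in dystrophic replicate 2, 95.8 in hypertrophic replicate 6, 79.8 in hypertrophic replicate 4 and 4.27 in dystrophic replicate 1. No WT-derived library held Ncoa4.

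Of the 9 listed genes of iron sensing with a row, 6 had a read, and their libraries differed. Ireb2, which encodes an iron regulatory protein, was in the same 4 libraries as Tfrc, at 77.7, 16.6 and 52.9 CPM in dystrophic replicates 1, 5 and 6 and at 223 CPM in hypertrophic replicate 1. Aco1, which encodes the other iron regulatory protein, was in dystrophic replicates 1, 5 and 6, at 40.2, 22.8 and 5.90 CPM. Hamp, the liver hormone hepcidin, was in hypertrophic replicate 6 alone (5.42 CPM). Fbxl5, a sensor named after its values were seen, was in 7 libraries at up to 90.8 CPM. Slc40a1, the iron exporter ferroportin, was in WT replicate 2 alone (36.2 CPM).

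Alas2, the erythroid enzyme of heme synthesis whose mRNA also carries an iron-responsive element, was in every library. It stood at 3930, 478 and 1568 CPM in WT-derived EVs, ran from 2203 to 4592 CPM in dystrophic-derived EVs and from 701 to 7058 CPM in hypertrophic-derived EVs. Its dystrophic-derived libraries were the tightest group and lay inside the hypertrophic-derived range. Epas1, a hypoxia regulator listed among transcripts with such an element although the search found none in its mouse transcript, was in every library too, but on 1 to 6 reads in 9 of them and on at least 101 in the other 6. Isca1, of mitochondrial iron-sulfur assembly, was in 12 libraries at up to 526.3 CPM.

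**Figure D5:**
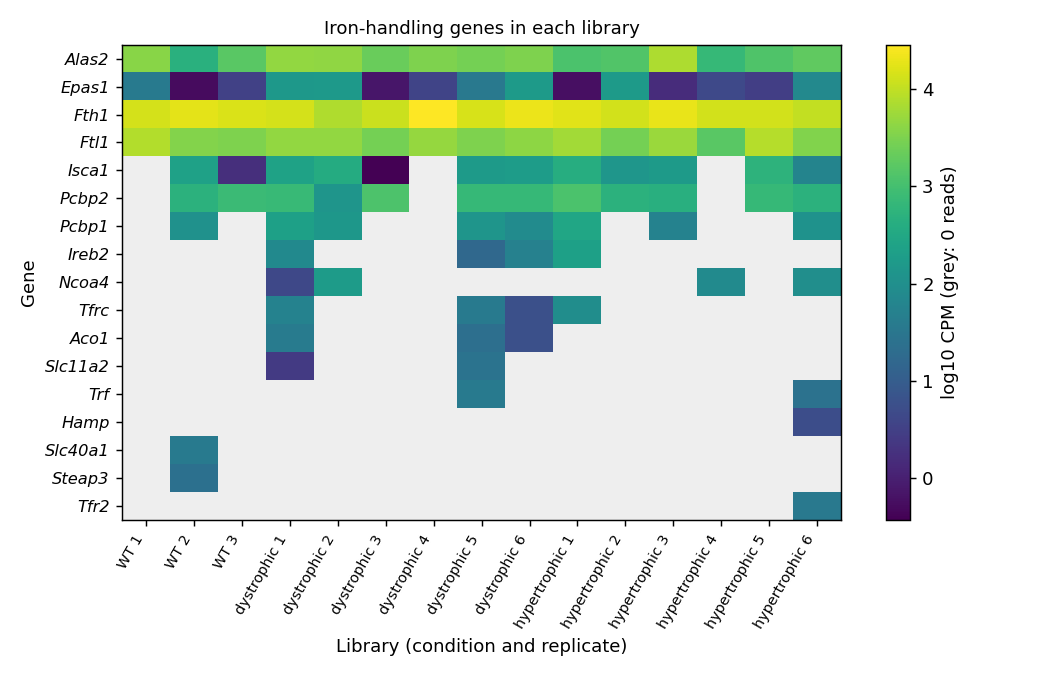
Level of the named iron-handling genes (rows of the map) in each library (columns), as log10 CPM by colour, with grey for 0 reads. Fth1, Ftl1, Alas2 and Epas1 have no grey cell, and Tfrc and Ireb2 are coloured in the same 4 libraries.

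The genes whose level followed each member most closely over the 15 libraries are given as a description, by Spearman's rho of log2 CPM among the 675 or 676 genes with a read in at least 12 libraries. For Fth1 they were Gabarapl2 (rho = 0.786), Actg1 (0.768) and Stx11 (0.725), and only Actg1 kept a like Pearson's r (0.741, against 0.301 for Gabarapl2 and 0.273 for Stx11). For Ftl1 they were Atox1 (0.757), March2 (0.754) and Sh3glb1 (0.727), with Pearson's r of 0.655, 0.584 and 0.749. For Tfrc they were Hvcn1 (0.859), Zfp36l2 (0.662) and R3hdm2 (0.646), a ranking in which 11 libraries are tied at 0 for Tfrc. All levels share their library's depth and total.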

How the data were processed

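The authors deposited 1 table of raw counts a library, not normalized, with a row for each gene symbol. The methods and the submitters' processing notes name TopHat, HTSeq, DESeq and mm10, single reads of 50 bases and an amplification step. The 5 summary lines of each table, 57.9% to 99.2% of its numbers, were left out. CPM used all gene rows. Conditions were compared with edgeR 4.0.16 (R 4.3.3; TMM, filterByExpr, quasi-likelihood fit to all 15 libraries, Benjamini-Hochberg adjusted p under 0.05). Log2 CPM used a prior count of 2. Permutation and Fisher's exact tests were run with scipy 1.17.1 and adjusted over the pairs of conditions, and correlations used 100000 permutations. The procedures were run on simulated data. For edgeR, a pass was required only at a spread well below that of these data. The simulation therefore does not show how often changes would be found at the spread seen here. Gene models came from GENCODE M21. Alternatives were DESeq2 1.42.0, other scalings and filters, exchanged or omitted crossed libraries and each library left out.

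The members and gene lists were chosen with earlier results of these data known. Named were the members, symbols starting with Fth or Ftl, iron genes with a read in 12 or more libraries, called iron genes, 10 defining iron genes, and the 3 genes most like each member. No pair of libraries within a group differed by as little as sampling noise.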

Additional observations from a re-analysis of the deposited data

Results flagged for a closer look

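In 28 groups of 6 libraries, the gap of the highest or lowest library to its neighbour was compared with the range of the group, and it passed 0.625 of that range in 9. Chance gives about 1 in 20 groups. This rate does not apply to 6 of the 9, where the other 5 libraries of the group were at 0 and a read in any library must pass. Nor does it apply to Ncoa4 and Slc11a2 in the dystrophic-derived group, where most libraries were at 0. Tfrc stood apart in hypertrophic replicate 1 at 93.2 CPM against 0 in the other 5, and Ireb2 stood apart in the same library at 223 CPM against 0. In hypertrophic replicate 6, Tfr2 was at 35.6 CPM, Trf at 26.3 CPM and Hamp at 5.42 CPM, each against 0 in the rest of its group. The hepatocyte markers, with Trf among them, summed to 1221 CPM in this library and to between 0 and 2181 CPM in the others of its group, and their part in these values was not tested. In dystrophic replicate 5, Trf was at 36.3 CPM against 0, and Slc11a2 at 27.3 CPM with the next library at 2.56 CPM. Ncoa4 was at 179.8 CPM in dystrophic replicate 2, with the next library at 4.27 CPM. Alas2 was at 7058 CPM in hypertrophic replicate 3, where the next library had 1788 CPM. The causes of these values were not tested.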

How the results depend on the processing

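No paired analysis was possible because the labels give no replicate numbers. Among the alternative runs that tested a member, none but DESeq2 for Tfrc gave it an adjusted p under 0.05. DESeq2 raised the genes that differed to 1315 (dystrophic-derived against WT-derived EVs), 1528 (hypertrophic-derived against WT-derived EVs) and 323 (hypertrophic-derived against dystrophic-derived EVs). With edgeR they were 1, 2 and 1. For Tfrc, DESeq2 gave log2 differences of 20.64 and 20.58 against WT. These cannot be read as folds, because every WT-derived library was at 0. Without a filter, and without mitochondrial and hemoglobin genes, edgeR called 0 genes in each comparison, against 580, 1120 and 4382 and 127, 529 and 815 at an unadjusted p under 0.05. In dystrophic-derived against WT-derived EVs the genes that differed were 3 without TMM, 2 with the crossed libraries exchanged and 3 in the 9 libraries with matching numbers. In hypertrophic-derived against dystrophic-derived EVs they were 0 with reads in at least 8 libraries, with the exchange and with matching numbers (52, 344 and 155 unadjusted). Tfrc has no value under the filter on 8 libraries or in the 9 libraries with matching numbers. With only the 2 conditions compared in the fit, it has a value for dystrophic-derived against WT-derived EVs alone.

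The direction of small differences turned. Ftl1 in hypertrophic-derived against dystrophic-derived EVs became 0.11 with DESeq2, 0.17 without TMM, 0.000523 with the exchange and 0.0065 in log2 CPM, and in dystrophic-derived against WT-derived EVs it became 0.21 without a filter. Fth1 in dystrophic-derived against WT-derived EVs became -0.37 with the exchange, -0.77 with matching numbers and -0.061 in log2 CPM, and in hypertrophic-derived against dystrophic-derived EVs it became 0.37 with the exchange. In hypertrophic-derived against WT-derived EVs it kept its sign at -0.0038 with the exchange and -1.01 with matching numbers (edgeR adjusted p = 0.605). The share of Fth1 changed by -0.916 percentage points (dystrophic against WT) and 3.55 (hypertrophic against dystrophic) with the exchange, and by -3.70, -1.40 (hypertrophic against WT) and 2.30 with matching numbers. Hypertrophic-derived libraries with Tfrc became 2 with the exchange. The correlation of erythroid markers with Tfrc, -0.112, became 0.152 without mitochondrial and hemoglobin genes. The cause was not tested.

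With each library left out, in the order dystrophic against WT, hypertrophic against WT and hypertrophic against dystrophic, Fth1 ran from -0.24 to 0.32, -0.77 to -0.28 and -0.68 to -0.33 on the log2 scale. Ftl1 ran from -0.19 to 0.19, -0.35 to -0.04 and -0.40 to -0.01, and Tfrc from 8.51 to 9.68, 0 to 9.20 and -9.22 to 0.46. The Tfrc values against WT cannot be read as folds, because every WT-derived library was at 0. The 0 and the -9.22 are those without hypertrophic replicate 1, the only library of its group with a Tfrc read. The share of Fth1 ran from -4.67 to 5.02, -5.92 to 3.76 and -4.46 to 1.88 percentage points, and genes that differed from 1 to 2, 1 to 3 and 0 to 2. Precision was limited by 3 WT-derived libraries, 1 of them with 27227 reads, and by the counts of a few reads per gene.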

Other observations

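Tfrc and Ireb2 were both counted in dystrophic replicates 1, 5 and 6 and in hypertrophic replicate 1, and in no other library, an overlap noticed after the values were seen. Of 1423 genes with reads in exactly 4 libraries, 34 (Tfrc and Ireb2 included) were in these same 4. Of the 10 iron-handling genes found in exactly 4 libraries, Tfrc and Ireb2 were the 2 with this pattern. Dystrophic replicates 1, 5 and 6 were the libraries of their group with the most genes detected, as given above. Among the other iron-handling genes, named here after their values were seen, Blvrb, which reduces biliverdin, was in 9 at up to 940 CPM in hypertrophic replicate 5, and Slc25a37, the iron importer of erythroid mitochondria, in 8 at up to 404 CPM in hypertrophic replicate 2.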
